A study of Mus musculus with 6 samples.

Results

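The Ms4a family encodes small proteins that cross the plasma membrane several times and keep both ends inside the cell. Its founding member is CD20, the product of Ms4a1 and a surface antigen of B cells. Another relative, the product of Ms4a2, is the β chain of the high-affinity IgE receptor of mast cells and basophils. Most of the genes lie side by side in one cluster on mouse chromosome 19, and many are used by 1 or a few blood cell lineages, among them macrophages, granulocyte progenitors, B cells and T cells. The 9 genes described here are Ms4a1, Ms4a3, Ms4a4b, Ms4a4c, Ms4a4d, Ms4a6b, Ms4a6c, Ms4a6d and Ms4a7. They were taken by symbol, as every non-control probe set that the platform annotation assigns to exactly 1 of these genes, which gave 17 probe sets of the 34945 with a single symbol.

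The study cultured KSL cells (c-Kit+Sca-1+Lin- bone marrow cells, the gate of blood stem and early progenitor cells) of C57BL/6J mice on a layer of human umbilical vein endothelial cells, over 7 days. The medium held 5 mouse cytokines, and either mD1R or PBS was added. KSL cells were then sorted again for total RNA and Affymetrix arrays, with 3 biological replicates for mD1R and 3 for PBS. Both groups therefore share the endothelial layer and the cytokines. mD1R is not written out in the labels; published work of the field uses the name for an engineered Delta-like 1 fragment that binds Notch receptors and is directed to endothelium. The comparison asks what differed in sorted KSL cells after culture with this protein.

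Signals were log2 values scaled per array, with array medians between 6.08 and 6.43. Of 27022 probe sets kept by the filter on low signal, 3413 passed an adjusted p of 0.05 in limma, 1657 higher (6.13%) and 1756 lower (6.5%) with mD1R, and the groups did not overlap in 36%. The median log2 change over all of them was 0.00. The array of mD1R replicate 3 stood between the groups. Its Pearson correlation across kept probe sets was 0.91 and 0.93 with the other mD1R arrays, and 0.91 to 0.94 with the PBS arrays. Spike-in controls also split the arrays into 2 sets, each with arrays of both groups. The first set holds mD1R replicates 1 and 2 with PBS replicate 1, and the second holds mD1R replicate 3 with PBS replicates 2 and 3. The gate gene Kit had log2 signals of 11.37, 11.13 and 9.58 with mD1R, against 9.97, 8.85 and 9.21 with PBS, and did not pass (adjusted p = 0.109, limma). Itgam, in the gate list for its lineage part, had 11.56, 11.94 and 11.72 with mD1R, against 11.66, 12.24 and 12.31 with PBS. Its signal was thus high in both groups. Itgam and Ptprc, also in that list, differed by -0.33 ± 0.22 and -0.34 ± 0.21 (log2, SE) and did not pass (adjusted p = 0.367 and 0.327, limma). Ly6a, which encodes Sca-1, was not used here because it had no probe set with a single symbol. Among mouse endothelial markers 1 of 3 measured genes rose (Pecam1, by 1.41 ± 0.31, SE), against 8.49% of all genes. Vwf and Kdr differed by 2.11 ± 0.68 and 0.79 ± 0.37 (log2, SE) and did not pass (adjusted p = 0.0796 and 0.194, limma). Cdh5, Tek and Emcn were below the filter. Any part of human RNA from the feeder layer in the signals was not tested.

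With mD1R, the macrophage-associated members Ms4a7 and Ms4a6d rose, by 4.44-fold and 3.25-fold on their brightest probe sets, and no member passed as lower. Ms4a3, a gene of granulocyte-monocyte progenitors, was far below its PBS level on 2 of the 3 mD1R arrays and only slightly below it on the third. For Ms4a4b the same 2 arrays were low and the third was above PBS. The log2 changes of Ms4a1, Ms4a4c, Ms4a6b and Ms4a6c lay between -0.10 and 0.67 and did not pass. Ms4a4d was below the filter. In all, 14 of the 17 probe sets were kept, for 8 of the 9 genes. Of these 14, 4 passed as higher, against 6.13% of all probe sets, and 0 as lower, against 6.5%. The groups did not overlap in 5 of the 14, against 36% of all probe sets. The median log2 change was 0.43 over the 14, in which 6 genes count with 2 probe sets each. By gene, on the brightest probe set, 2 of 8 rose, against 8.49% of all genes, and the median was 0.22, against 0.09 over all genes.

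**Figure D1:**
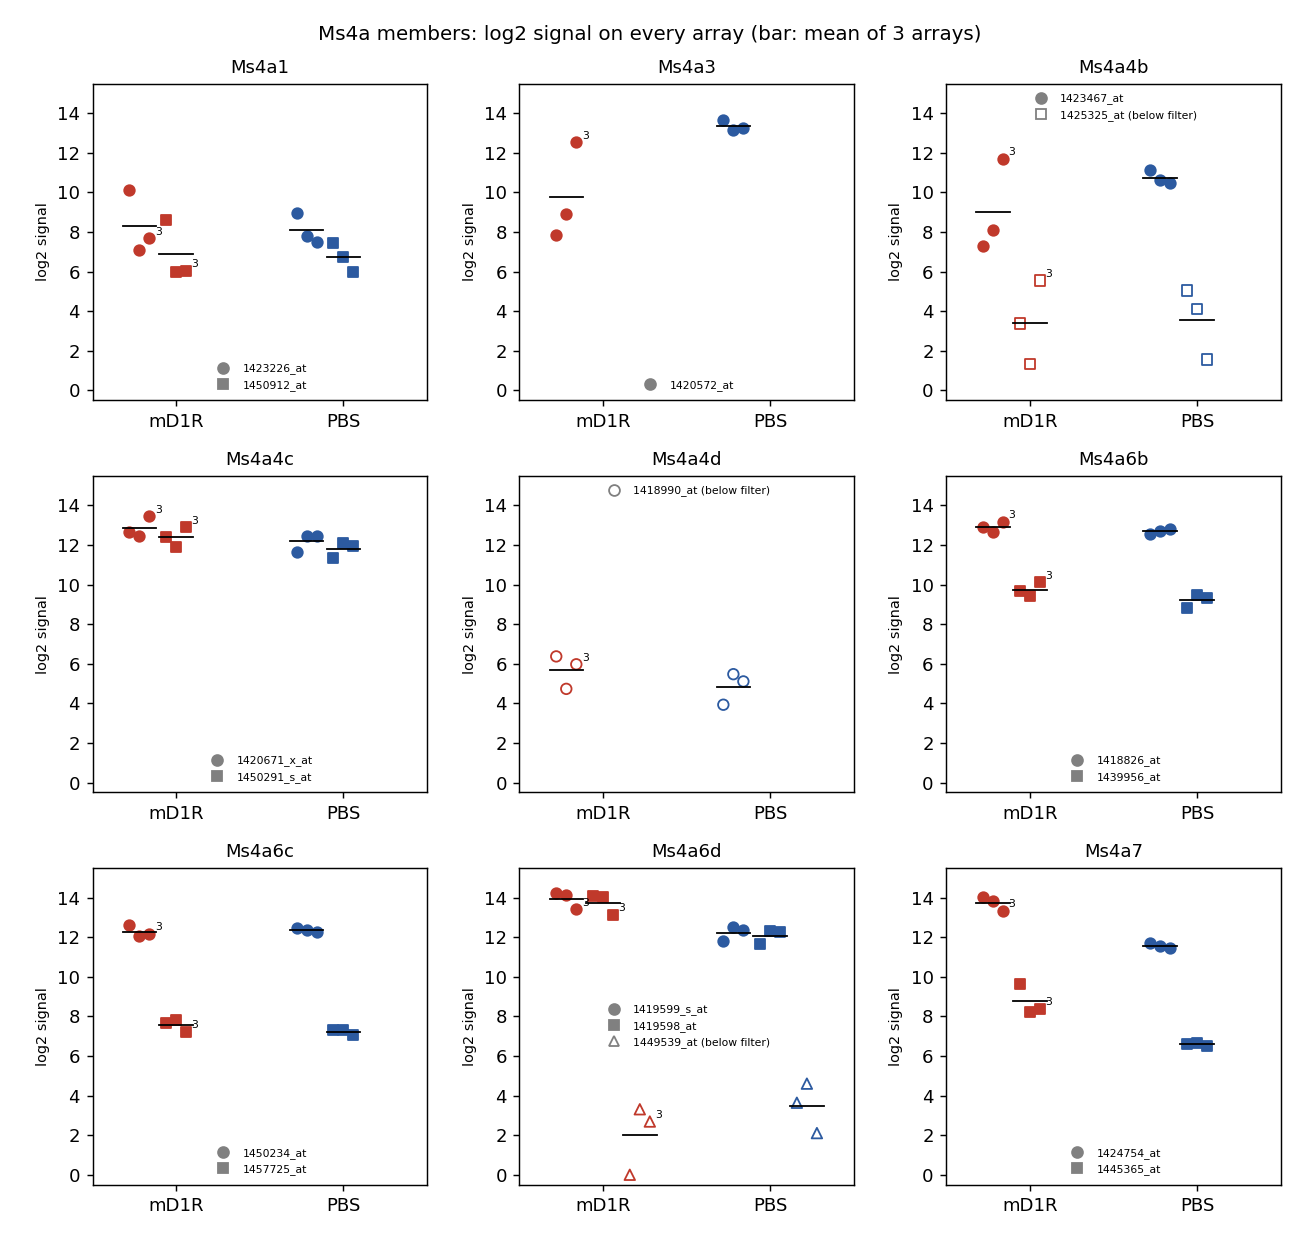
Log2 signal (vertical axis) of each Ms4a member on every array, with mD1R arrays in red and PBS arrays in blue, a marker shape for each probe set, a bar for the mean of 3 arrays and a small 3 beside mD1R replicate 3. Open markers are probe sets below the filter. Ms4a7 and the bright Ms4a6d probe sets sit higher on all mD1R arrays, and mD1R replicate 3 lies near the PBS arrays for Ms4a3 and above them for Ms4a4b.

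Upstream sequence is shown for members whose changes are set against each other below. The RefSeq promoter table (GRCm38.p6) held entries for 7 of the 9 members and not for Ms4a1 and Ms4a6d. The 250 bases before each listed start were searched on both strands for 4 motifs. The first was GAGGAA, a core bound by the ETS factor PU.1. The second was TGGGAA, the core of the Notch partner Rbpj. The others were AGATAA, bound by factors such as Gata2, and TTGCNNAA, bound by C/EBP proteins; no 2 matches overlapped in the promoters shown. Of all 32851 promoters in the table, 23.3% held GAGGAA, 21.6% TGGGAA, 9.99% AGATAA and 9.56% TTGCNNAA. The first set is the member with the firmest rise, Ms4a7 (chr19:11336147-11336396, minus strand), the one with the most negative difference, Ms4a3 (chr19:11640852-11641101, minus strand), and their mast cell relative next to Ms4a3, Ms4a2 (chr19:11623720-11623969, minus strand). Capitals mark the motifs found.
Ms4a7: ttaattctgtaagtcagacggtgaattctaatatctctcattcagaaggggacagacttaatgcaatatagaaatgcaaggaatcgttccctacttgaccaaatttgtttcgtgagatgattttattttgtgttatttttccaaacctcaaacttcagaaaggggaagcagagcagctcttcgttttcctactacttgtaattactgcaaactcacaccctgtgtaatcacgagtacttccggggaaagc
Ms4a3: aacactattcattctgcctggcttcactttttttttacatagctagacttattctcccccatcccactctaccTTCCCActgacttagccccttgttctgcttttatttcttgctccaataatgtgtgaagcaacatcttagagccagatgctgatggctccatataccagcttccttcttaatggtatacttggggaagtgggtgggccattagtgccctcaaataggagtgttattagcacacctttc
Ms4a2: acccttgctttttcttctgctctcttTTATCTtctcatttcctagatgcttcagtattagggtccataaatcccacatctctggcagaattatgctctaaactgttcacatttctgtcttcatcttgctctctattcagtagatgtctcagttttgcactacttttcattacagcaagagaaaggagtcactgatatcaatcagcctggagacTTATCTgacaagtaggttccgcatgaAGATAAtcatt
None of the 4 motifs was in either Ms4a7 entry. Ms4a3 held 1 TGGGAA, on the strand opposite to the one printed and 177 bases before the start, and Ms4a6c held 1 in the same orientation at 184 bases. Ms4a4d held 1 TTGCNNAA, 12 bases before the start. Ms4a2 held 3 AGATAA, and 3 or more were present in 0.0883% of all promoters. That cut equals the count in Ms4a2, and no such share was computed for the other motifs. It is therefore no measure of how unusual Ms4a2 is. A match is a string of letters and not a shown binding site.

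The second set is a pair of neighbours with alike upstream sequence, Ms4a4c (chr19:11407411-11407660, plus strand) and Ms4a4b (chr19:11443308-11443557, plus strand), whose signals followed different patterns. Capitals again mark motifs.
Ms4a4c: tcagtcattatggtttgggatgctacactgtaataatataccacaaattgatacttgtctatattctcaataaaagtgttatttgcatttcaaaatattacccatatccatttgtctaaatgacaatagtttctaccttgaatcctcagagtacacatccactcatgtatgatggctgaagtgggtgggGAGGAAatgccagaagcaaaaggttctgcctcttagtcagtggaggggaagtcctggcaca
Ms4a4b: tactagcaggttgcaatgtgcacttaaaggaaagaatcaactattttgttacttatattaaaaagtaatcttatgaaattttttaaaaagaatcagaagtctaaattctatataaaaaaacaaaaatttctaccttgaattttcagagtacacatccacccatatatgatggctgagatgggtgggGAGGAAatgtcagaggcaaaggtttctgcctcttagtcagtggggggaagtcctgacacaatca
Both held GAGGAA, 61 bases before the start in Ms4a4c and 64 bases before it in Ms4a4b. A global alignment gave 70.8% identity, against 43.9% to 53% for 26 other pairs of member promoters. The third set is Ms4a6c (chr19:11469118-11469367, plus strand) and Ms4a6b (chr19:11518309-11518558, plus strand), 2 members whose brightest probe sets differed by -0.10 and 0.23 (log2). Capitals mark the longest run both share, and not motifs.
Ms4a6c: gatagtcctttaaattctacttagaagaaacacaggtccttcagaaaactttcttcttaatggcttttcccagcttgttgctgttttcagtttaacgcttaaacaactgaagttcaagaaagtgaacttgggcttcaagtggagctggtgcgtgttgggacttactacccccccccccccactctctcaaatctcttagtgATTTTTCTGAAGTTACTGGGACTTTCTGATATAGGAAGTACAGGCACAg
Ms4a6b: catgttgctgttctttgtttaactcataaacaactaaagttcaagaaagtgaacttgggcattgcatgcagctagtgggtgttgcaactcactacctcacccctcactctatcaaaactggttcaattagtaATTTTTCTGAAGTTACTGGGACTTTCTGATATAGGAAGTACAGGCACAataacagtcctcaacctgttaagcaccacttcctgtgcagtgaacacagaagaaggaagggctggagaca
That run is 48 bases long. It ends 2 bases before the start in Ms4a6c and 71 bases before it in Ms4a6b, and 26 other pairs shared runs of 6 to 12 bases. In the global alignment the identity of Ms4a6c and Ms4a6b was 47.4%, inside the range of those pairs.

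Ms4a7 is expressed by macrophages and rises as monocytes mature into them. Its brighter probe set had log2 signals of 14.04, 13.82 and 13.35 with mD1R, against 11.70, 11.57 and 11.48 with PBS. All 3 mD1R arrays lay above all PBS arrays, and the PBS arrays were tightly grouped. The mean was 13.73 ± 0.35 with mD1R and 11.58 ± 0.11 with PBS (SD, n = 3 each). The rise of 2.15 ± 0.21 (log2, SE) passed with an adjusted p of 0.00961 (limma). The dimmer probe set had 9.65, 8.23 and 8.38 with mD1R, against 6.62, 6.66 and 6.53 with PBS, and rose by 2.15 ± 0.38 (adjusted p = 0.016, limma). The estimates of the 2 probe sets for Ms4a7 were thus alike in size. For the brighter one the change was 2.23 within the first spike-in set and 1.82 within the second, each resting on a single array of 1 group.

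Ms4a6d is a macrophage member of the Ms4a6 branch. Its brightest probe set, s-suffixed, had log2 signals of 14.25, 14.11 and 13.41 with mD1R, against 11.79, 12.52 and 12.37 with PBS. The next brightest had 14.08, 14.02 and 13.13 with mD1R, against 11.67, 12.29 and 12.28 with PBS. On both the groups did not overlap, with mD1R replicate 3 the lowest of its group and PBS replicate 1 the lowest of all arrays. The rises were 1.70 ± 0.28 (adjusted p = 0.0138, limma) and 1.66 ± 0.30 (adjusted p = 0.0165, limma). Within the spike-in sets the Ms4a6d change on the brightest was 2.39 and 0.97. The last of its probe sets was below the filter, with 0.00, 3.31 and 2.69 with mD1R, against 3.64, 4.603 and 2.11 with PBS, so it was not tested. A suffix of s or x in a probe set name marks probes that can match more than 1 transcript, so signals of such probe sets may include a relative.

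Some markers of monocytes and macrophages rose as these members did. Of 14 measured markers 5 rose and 0 fell, against 8.49% and 7.09% of all 12320 genes, and the others did not pass. The median log2 change of the 14 was 1.16. The scavenger receptor gene Msr1 rose by 2.29 ± 0.31, the endosomal glycoprotein gene Cd68 by 1.74 ± 0.27 and Adgre1, a macrophage surface receptor gene, by 1.82 ± 0.37 (SE, limma). They were named for the smallest p in the list, which favours genes high on every mD1R array. The other markers of the list are not shown by array. The summed linear signal of the 14 lay between 130793 and 185500 on the mD1R arrays and between 76284 and 93056 on the PBS arrays. Of the 14, 0 was listed at 0 on any array. Adgre1 had log2 signals of 13.84, 13.81 and 12.42 with mD1R, against 11.64, 11.58 and 11.39 with PBS. As for Ms4a6d, mD1R replicate 3 was the lowest of its group and above all PBS arrays. The part of macrophage-type cells in the Ms4a7 and Ms4a6d signals was not tested. In these bulk samples fewer or more cells of a type and less or more RNA per cell cannot be told apart.

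By the root mean square difference between profiles centred on their means over the 6 arrays, the genes most like Ms4a7 among 11695 others were Nenf, Csf2rb2 and Mr1. The distances were 0.090, 0.12 and 0.13 (log2). Csf2rb2, a receptor chain for interleukin 3, had 13.77, 13.55 and 13.06 with mD1R, against 11.11, 11.20 and 11.02 with PBS. Among the members Ms4a6d was nearest to Ms4a7, at 0.36, and Ms4a3 farthest, at 3.30.

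Ms4a3, also called HTm4, marks granulocyte-monocyte progenitors, and in human cells its product binds the phosphatase KAP that acts on a cell cycle kinase. Its single probe set had log2 signals of 7.86, 8.91 and 12.53 with mD1R, against 13.68, 13.18 and 13.26 with PBS. The groups did not overlap. Relative to the PBS mean the mD1R arrays deviated by -5.51, -4.46 and -0.84, so replicate 3 differed from the other mD1R arrays by far more than the PBS arrays differed among themselves. The mean was 9.77 ± 2.45 with mD1R and 13.38 ± 0.27 with PBS (SD, n = 3 each). The difference of -3.61 ± 1.02 (log2, SE) did not pass (adjusted p = 0.055, limma). It was -5.30 within the first spike-in set and -0.69 within the second. Without mD1R replicate 3 the difference was -4.99 and passed (adjusted p = 0.000459, limma), and over 17 alternatives, of which 6 passed, the adjusted p lay between 0.000459 and 0.173. A replicate-number block gave Ms4a3 an adjusted p of 0.0301.

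Among the neutrophil and progenitor markers, the 3 with the smallest p were low on mD1R replicates 1 and 2 and nearer to PBS on replicate 3. Mpo, the granule peroxidase, had 7.39, 9.77 and 13.93 with mD1R, against 14.68, 14.35 and 14.36 with PBS. Prtn3, a granule protease gene, had 8.22, 11.10 and 13.52 with mD1R, against 14.23, 14.08 and 14.17 with PBS. The repressor gene Gfi1 had 6.92, 7.89 and 10.12 with mD1R, against 11.43, 10.55 and 10.65 with PBS. As for Ms4a3, replicate 3 lay closest to the PBS arrays on these 3 genes. The granule protease genes Elane and Ctsg were named outside the rule. Elane had 4.12, 8.20 and 12.17 with mD1R, against 13.12, 12.16 and 12.21 with PBS, so its replicate 3 lay among the PBS arrays. The difference for Elane was -4.33 ± 1.67 (log2, SE) and did not pass (adjusted p = 0.127, limma). Ctsg did not share that pattern. It had 13.24, 12.84 and 14.58 with mD1R, against 14.13, 13.55 and 13.77 with PBS, a difference of -0.27 ± 0.42 (log2, SE, adjusted p = 0.715, limma) with mD1R replicate 3 the highest of all arrays. Of 10 measured markers of this lineage 0 passed in either direction, against 8.49% higher and 7.09% lower among all genes. Their median log2 change was -2.89. Their summed linear signal ran between 33488 and 290849 on the mD1R arrays and between 234107 and 282117 on the PBS arrays. Their part in the Ms4a3 values was not tested. The gene of the KAP phosphatase, Cdkn3, was looked up because of its known link to HTm4, outside the rule for named genes. It had 8.60, 7.996 and 9.64 with mD1R, against 11.26, 11.32 and 11.58 with PBS, and fell by 2.64 ± 0.38 (log2, SE, adjusted p = 0.0113, limma).

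**Figure D2:**
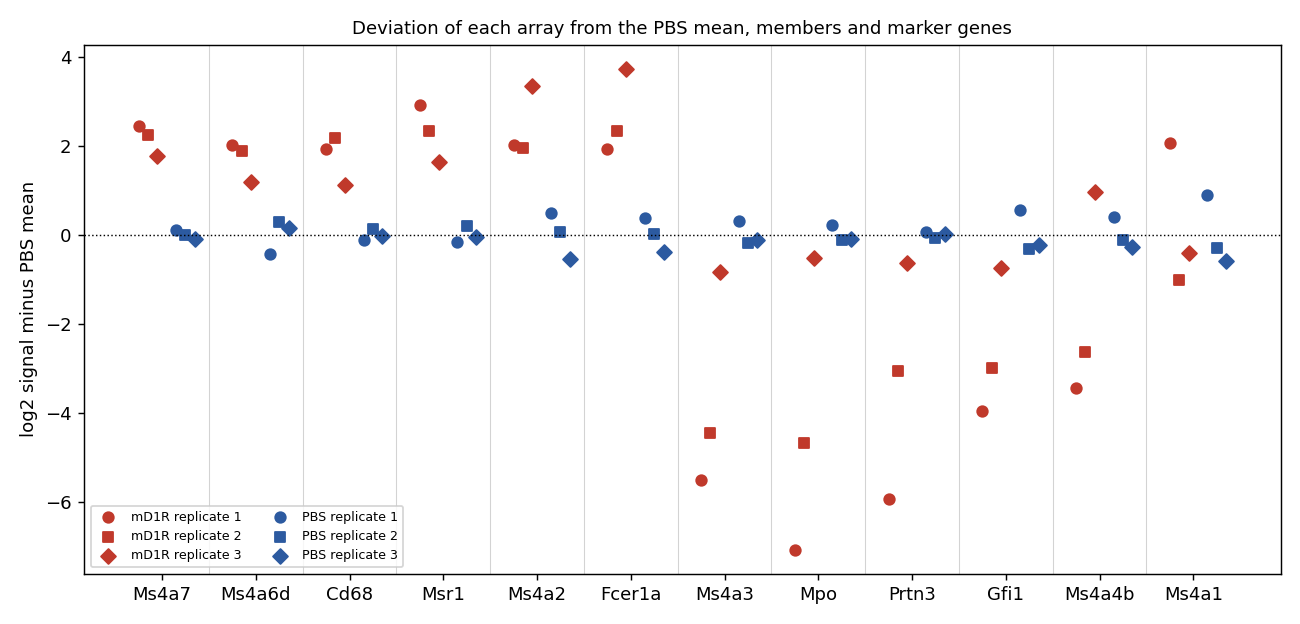
Log2 signal minus the PBS mean (vertical axis) on each array for 5 members, the IgE receptor genes Ms4a2 and Fcer1a and marker genes, with mD1R arrays in red, PBS arrays in blue and a shape for each replicate number. For Ms4a3, Mpo, Prtn3 and Gfi1 the array of mD1R replicate 3 lies at -0.84 to -0.53, and replicates 1 and 2 at -7.08 to -2.99.

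Ms4a4b is a lymphocyte member, known in mouse T cells as a modulator of signalling and proliferation. The brighter probe set had log2 signals of 7.29, 8.11 and 11.69 with mD1R, against 11.13, 10.63 and 10.46 with PBS. Replicates 1 and 2 of mD1R were the lowest arrays and replicate 3 the highest of all 6, so the groups overlapped. The difference was -1.71 ± 0.98 (log2, SE, adjusted p = 0.287, limma), with a 95% interval between -3.97 and 0.55. It was -3.44 within the first spike-in set and 1.15 within the second, opposite in sign. Without mD1R replicate 3 it was -3.04 and passed (adjusted p = 0.00116, limma), and without mD1R replicate 1 it was -0.84 and did not pass. Of 17 alternatives 1 passed, and the adjusted p lay between 0.00116 and 0.592 (limma). The second Ms4a4b probe set was below the filter, with 3.39, 1.33 and 5.56 with mD1R, against 5.06, 4.11 and 1.58 with PBS.

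As a sum, markers of T and natural killer cells did not show that split. Of 11 measured, 7 fell and 0 rose, against 7.09% and 8.49% of all genes, with a median log2 change of -1.95. Cd3d, a chain of the T cell receptor complex, had 5.60, 4.57 and 4.97 with mD1R, against 9.01, 8.66 and 8.66 with PBS, and fell by 3.73 ± 0.34 (log2, SE, adjusted p = 0.00778, limma). The natural killer receptor gene Klrd1 fell by 2.22 ± 0.40 and Cd3g by 1.80 ± 0.34. The summed linear signal of the 11 was 484 to 738 on the mD1R arrays and 2087 to 3158 on the PBS arrays, with Cd4 below the filter. On mD1R replicate 3 the Cd3d signal was low while that of Ms4a4b was high. Cd3d was named for its smallest p, which favours genes low on every mD1R array. The markers that did not pass are not shown by array, and the part of T cells in the Ms4a4b signal was not tested.

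Ms4a6b, a relative of Ms4a4b that is also known from mouse T cells, did not pass on either probe set. The brighter had 12.94, 12.65 and 13.18 with mD1R, against 12.57, 12.70 and 12.82 with PBS. The groups overlapped, and the difference was 0.23 ± 0.19 (log2, SE), with a 95% interval between -0.21 and 0.66. The dimmer had 9.69, 9.43 and 10.11 with mD1R, against 8.83, 9.46 and 9.32 with PBS, a difference of 0.54 ± 0.26 (adjusted p = 0.203, limma). With the spike-in set as a block the second probe set of Ms4a6b passed, at 0.73 (adjusted p = 0.0425, limma). It passed in that 1 of 17 alternatives only, with adjusted p up to 0.415 (limma).

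Ms4a4c, which shares upstream sequence with Ms4a4b, did not pass on either probe set. The x-suffixed one had 12.68, 12.46 and 13.46 with mD1R, against 11.65, 12.47 and 12.47 with PBS. The s-suffixed one had 12.39, 11.92 and 12.90 with mD1R, against 11.35, 12.09 and 11.93 with PBS. On both, mD1R replicate 3 was the highest array and PBS replicate 1 the lowest, and the groups overlapped. The differences were 0.67 ± 0.32 (adjusted p = 0.209, limma) and 0.61 ± 0.29 (adjusted p = 0.207, limma). With the spike-in set as a block both Ms4a4c probe sets passed, at 0.96 (adjusted p = 0.0147, limma) and 0.85 (adjusted p = 0.0295, limma). Each passed in that 1 of 17 alternatives only, with adjusted p up to 0.454 and 0.44 (limma). The centred profile of Ms4a4b was 1.67 from that of Ms4a4c and 0.95 from that of Ms4a3.

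Ms4a6c, of the same branch as Ms4a6b, did not pass on either probe set. The brighter had 12.60, 12.05 and 12.18 with mD1R, against 12.48, 12.36 and 12.29 with PBS. The difference was -0.10 ± 0.19 (log2, SE), with a 95% interval between -0.54 and 0.35 for that probe set. The dimmer had 7.65, 7.80 and 7.23 with mD1R, against 7.31, 7.34 and 7.05 with PBS, a difference of 0.33 ± 0.26. Its 95% interval ran between -0.28 and 0.94. For Ms4a6c the sign therefore differed between probe sets, and neither passed. Ms4a4d had a mean signal just under the filter, with 6.38, 4.74 and 5.98 with mD1R, against 3.93, 5.48 and 5.11 with PBS, and was not tested.

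Ms4a1 encodes CD20. The brighter probe set had log2 signals of 10.14, 7.08 and 7.68 with mD1R, against 8.98, 7.80 and 7.49 with PBS. The highest value was that of mD1R replicate 1 and the lowest that of mD1R replicate 2, so the groups overlapped. The dimmer showed the same order at the top, with 8.59, 6.00 and 6.05 with mD1R, against 7.45, 6.75 and 5.96 with PBS. The differences were 0.21 ± 0.76 and 0.16 ± 0.72 (log2, SE), and neither passed (adjusted p = 0.883 and 0.91, limma). The 95% interval for the first ran between -1.55 and 1.97, so changes up to those sizes either way were not excluded. Without mD1R replicate 1 both Ms4a1 differences changed sign, to -0.71 and -0.70.

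Of 7 measured B cell markers 4 fell, 0 rose and 3 did not pass, where 7.09% of all genes fell and 8.49% rose. Their median log2 change was -1.20. The B cell scaffold gene Bank1 had 7.15, 6.49 and 7.10 with mD1R, against 9.66, 9.21 and 9.38 with PBS, and fell by 2.50 ± 0.26 (log2, SE, adjusted p = 0.00961, limma). The B lineage factor gene Ebf1 fell by 2.92 ± 0.39 and the kinase gene Blk by 1.62 ± 0.31, while Pax5 and Fcer2a were below the filter. On mD1R replicate 1, where Ms4a1 was highest, Bank1, Ebf1 and Blk had signals of 7.15, 5.71 and 6.55, all below every PBS array. These genes were named for the smallest p in the list, which favours genes low on every mD1R array. The 3 markers that did not pass are not shown by array, so whether any of them followed Ms4a1 was not tested.

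Of 15 other genes of the family and its distant relatives, 8 had a single-symbol probe set and 5 were kept. Ms4a2 rose on both probe sets. On the brighter it had 11.50, 11.42 and 12.82 with mD1R, against 9.97, 9.54 and 8.92 with PBS, and rose by 2.43 ± 0.42 (log2, SE, adjusted p = 0.0148, limma). Its receptor partner Fcer1a, the α chain that binds IgE, rose by 2.66 ± 0.45, while the shared γ chain gene Fcer1g differed by 0.31 ± 0.23 and did not pass. For Ms4a2 and Fcer1a the array of mD1R replicate 3 was the highest, unlike Ms4a7 and Ms4a6d. Of 8 genes listed as mast cell and basophil markers, which include Fcer1a and the gate gene Kit, 5 rose and 0 fell, against 8.49% and 7.09% of all genes. Their median log2 change was 2.36. Cpa3, a mast cell carboxypeptidase, rose by 2.78 ± 0.26 and the transcription factor gene Gata2 by 2.22 ± 0.30. The summed linear signal of the 8 listed genes was 50764 to 87914 on the mD1R arrays and 13868 to 22011 on the PBS arrays. The part of mast cells and basophils in these signals was not tested.

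Ms4a8a, known in mouse from alternatively activated macrophages, was the one family gene that fell. It had 8.07, 6.99 and 6.05 with mD1R, against 8.44, 9.59 and 9.91 with PBS, and fell by 2.28 ± 0.56 (log2, SE, adjusted p = 0.0362, limma). The groups did not overlap, the lowest array was mD1R replicate 3, and mD1R replicate 1 was closest to the PBS arrays. The Ms4a8a call passed in 12 of 17 alternatives, with adjusted p between 0.0045 and 0.137. Ms4a15 differed by 0.41 ± 0.33, and the probe sets of Tmem176a and Tmem176b, distant relatives found in dendritic cells, by between -0.43 and 0.11, and none of these passed. Genes listed as dendritic cell markers were mixed, of which 2 of 4 measured fell, against 7.09% of all genes. The part of dendritic cells in their signals was not tested. Siglech fell by 2.81 ± 0.56 and Flt3 fell by 2.08 ± 0.52 (log2, SE), while Itgax, which did not pass, had 9.40, 10.38 and 7.01 with mD1R, against 8.03, 7.82 and 7.88 with PBS. Ms4a10, Ms4a13 and Ms4a18 were below the filter, as were Ms4a19 and Ms4a20, which were looked up after their probe sets were seen.

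**Figure D3:**
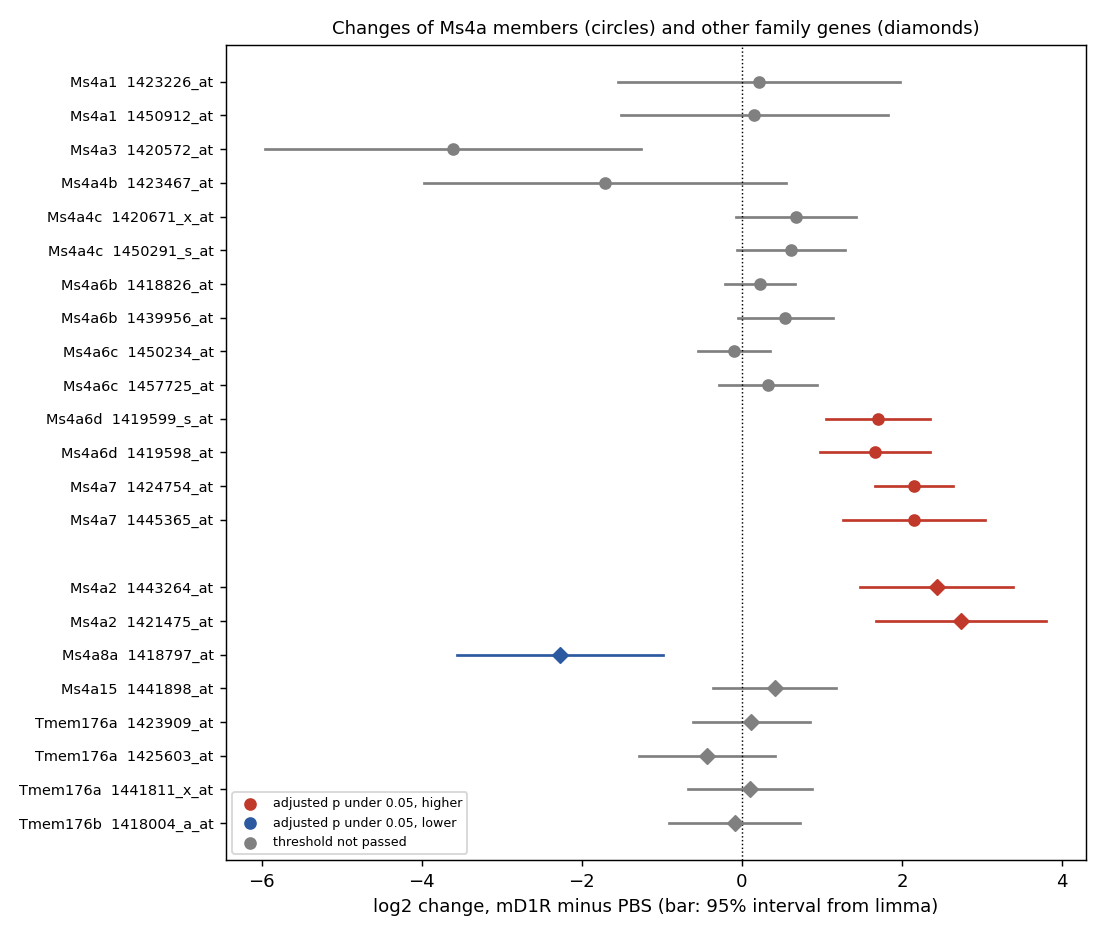
Log2 change, mD1R minus PBS (horizontal axis), of each kept probe set of the members (circles) and of other family genes (diamonds), with 95% intervals from limma. Red marks rises and blue falls past an adjusted p of 0.05, and gray marks changes that did not pass. The intervals of Ms4a3 and Ms4a4b are the widest, from -5.95 to -1.26 and from -3.97 to 0.55.

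Ms4a6d, Ms4a2 and Ms4a3 are direct neighbours among protein-coding genes of the RefSeq table. Their log2 changes were 1.70 ± 0.28, 2.43 ± 0.42 and -3.61 ± 1.02 (SE), of which the last did not pass. The stretch between Ms4a7 and Ms4a6d holds, among other genes, Ms4a4c, Ms4a4b, Ms4a6c and Ms4a6b, for which none of the brightest probe sets passed. Of the 3 genes on each side of the cluster, Ccdc86, Oosp1 and Oosp3 were kept and differed by 0.57 ± 0.22, -1.21 ± 0.66 and -0.31 ± 0.47, and none of them passed.

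**Figure D4:**
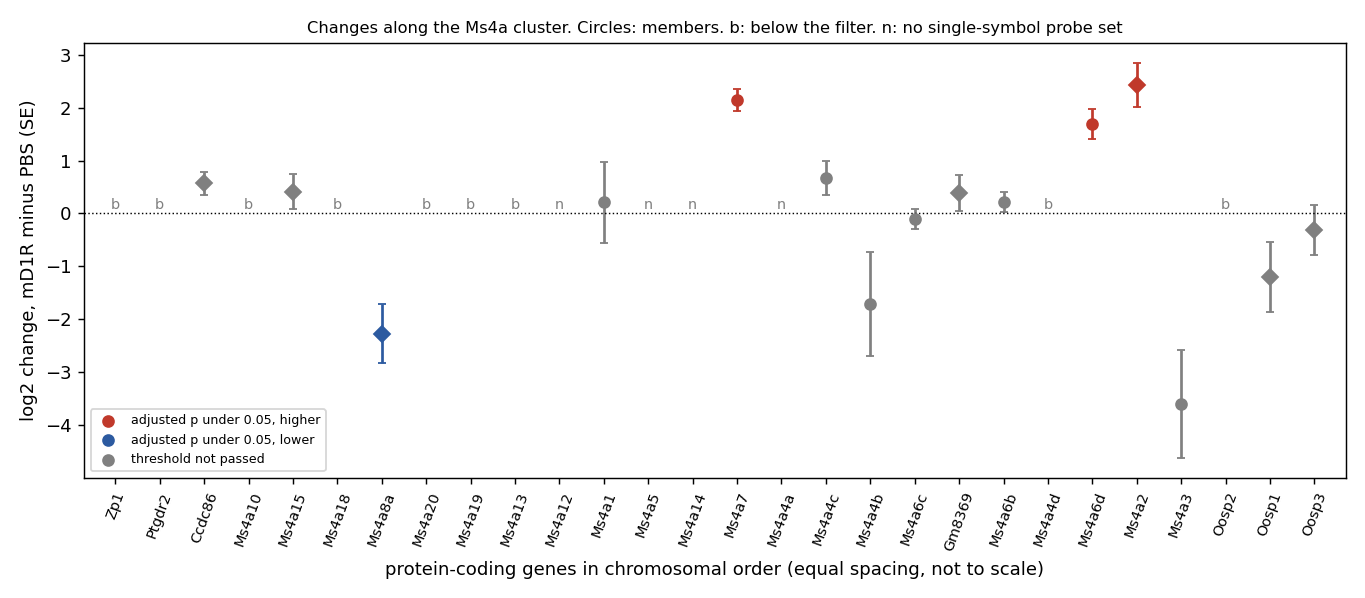
Log2 change, mD1R minus PBS, with SE (vertical axis) for protein-coding genes of the Ms4a cluster and 3 genes on each side, in chromosomal order at equal spacing. Circles are the members and diamonds other genes, with red for rises and blue for falls past an adjusted p of 0.05, and letters mark genes below the filter (b) or with no single-symbol probe set (n). Ms4a2, at 2.43, and Ms4a3, at -3.61, are neighbours.

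The mD1R arrays differed among themselves more than the PBS arrays did. The SD was larger with mD1R than with PBS for 14 of the 14 kept member probe sets, against 64.4% of all kept probe sets. The largest SDs of log2 signal with mD1R were 2.45 for Ms4a3 and 2.34 for Ms4a4b, where the PBS arrays had 0.27 and 0.35. Without mD1R replicate 3, Ms4a7 rose by 2.34 and Ms4a6d by 1.96 on their brightest probe sets (adjusted p = 0.000575 and 0.00241, limma), so both calls stood with and without that array. Without PBS replicate 3 neither passed, at 2.10 and 1.77 (adjusted p = 0.0663 and 0.0668, limma), and 0 of 27022 probe sets passed there.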

How the data were processed

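The authors deposited log2 signals of 45101 probe sets on 6 arrays, and the submitters' processing notes name MAS5 without a version. From the values, each array has a linear 2% trimmed mean of 500.0, and 239 to 422 values per array are listed at 0. Detection calls were not used here, so low signals cannot be told from background, and the number of arrays limits the precision (median SE of a log2 change 0.31). Groups and replicate numbers come from the sample titles.

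The 64 control probe sets and those with a mean log2 signal under the 40th percentile (5.27) were left out, keeping 27022. mD1R was compared with PBS with limma 3.58.1 in R 4.3.3 (lmFit, eBayes with a variance trend, two-sided, no block), with Benjamini-Hochberg adjustment over all kept probe sets and a threshold of 0.05. A gene's brightest kept probe set stands for it in counts of genes. Every member probe set is named, and of marker lists the 3 genes with the smallest p, with the nearest profiles by distance. Promoters were aligned with Biopython 1.88. The fit was also run on simulated data with independent noise for each probe set. That run holds no differences shared across an array, so it does not bear on them. The members and lists were chosen with earlier results of these data known. Alternatives covered scaling, a pseudocount, the filter, variance models, array weights, blocks, the threshold and leaving out each array. Protein sequences were not used here.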

Additional observations from a re-analysis of the deposited data

How the results depend on the processing

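Limits come first. With 3 arrays a group, 1 array can carry a call, and MAS5 values are noisy at low signal. The rises of Ms4a7 and Ms4a6d kept their direction in every alternative run. The brightest probe set of Ms4a7 passed in 16 of 17 and that of Ms4a6d in 15 of 17, while their second probe sets passed in 14 and 13 of 17. Member probe sets higher with mD1R numbered 4, and 7 with the spike-in set as a block. Those lower numbered 0, and 1 with array median centring, a pseudocount of 32, the filter at the 60th percentile, array weights, the replicate block or unadjusted p 0.05 with 2-fold, in each case Ms4a3. Leaving out 1 array gave 0 to 4 higher and 0 to 2 lower. The higher count was 2 without PBS replicate 1, PBS replicate 2 or mD1R replicate 2, and 0 without PBS replicate 3, where 5 member probe sets and 5853 of all had an unadjusted p under 0.05 in limma. Both lower calls, Ms4a3 and Ms4a4b, came without mD1R replicate 3. Over all probe sets, 1657 were higher and 1756 lower, against 1077 and 1136 with no variance trend and 3112 and 3396 with array weights. Leaving out 1 array gave 0 to 2523 higher and 0 to 3042 lower. With the replicate block all calls numbered 4619, against 3413 without it, and the deviations of same-numbered arrays from their group means correlated at 0.31, 0.03 and 0.13. Replicate 2 of mD1R correlated best with PBS replicate 3 (0.09), so the numbers were not taken to pair the arrays. The block added the call of Ms4a3 and removed none among the members. Sign changes were seen only for small differences that passed nowhere. With the spike-in set as a block the Ms4a1 probe sets stood at -0.17 and -0.23 and Tmem176b at 0.13. Leaving out 1 array moved the Ms4a1 probe sets between -0.71 and 0.82 and between -0.70 and 0.60, the brighter Ms4a6c probe set between -0.26 and 0.0138, the brightest Tmem176a probe set between -0.0789 and 0.43 and its x-suffixed one between -0.25 and 0.29, and Tmem176b between -0.37 and 0.32. With array weights the x-suffixed Tmem176a probe set stood at -0.15. The cause of these shifts was not tested. No probe set lists a member together with another gene, so adding such probe sets gave no value.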

Other observations

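The genes nearest to Ms4a3 and Ms4a4b were looked up after their values were seen, by the same distance over the 6 arrays. Nearest to Ms4a3 were Cdk5r1 (distance 0.24), Ramp1 (0.34) and Ankrd22 (0.35). Cdk5r1, an activator of the kinase Cdk5, had log2 signals of 3.90, 5.47 and 8.66 with mD1R, against 9.79, 9.70 and 9.86 with PBS. Ramp1, which encodes an accessory protein of the calcitonin gene-related peptide receptor, had 7.06, 8.66 and 11.18 with mD1R, against 12.73, 12.12 and 12.18 with PBS. These 3 genes passed as lower, by -3.77 ± 1.01, -3.38 ± 0.87 and -3.92 ± 0.93 (log2, SE, adjusted p = 0.048, 0.0426 and 0.0328, limma), and Ms4a3 did not pass. Sizes near that of Ms4a3 follow from choosing genes by distance to its profile, so these calls are no support for it.

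Nearest to Ms4a4b were 3 immunoglobulin genes, a pair of kappa variable segments (0.39 and 0.43) and the heavy chain constant gene Ighg3 (0.52). Ighg3 had 5.82, 7.57 and 10.15 with mD1R, against 10.12, 10.46 and 10.05 with PBS. For all 3 the groups overlapped and the difference did not pass (adjusted p = 0.188, 0.149 and 0.129, limma). Immunoglobulin genes form a multigene family, and whether these probe sets also match relatives was not tested. Being nearest in 6 arrays says nothing of shared control.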
